A study of Acipenser baerii with 14 samples.

Results

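The responses of ampullary organs (AO) and neuromasts (NM) to neomycin at 12 h post treatment (hpt) were compared gene by gene, as the change in AO at 12 hpt against untreated AO minus the change in NM at 12 hpt against untreated NM. This difference between responses, an interaction contrast on the log2 scale, used 8 of the 14 libraries of the series, 2 in each of the 4 groups AO at 12 hpt, untreated AO, NM at 12 hpt and untreated NM. Of 23448 assembled genes, the 21978 with enough counts for a test were all included. A positive difference means that a gene rose more, or fell less, in AO than in NM, and a negative difference means the reverse. All larvae were Siberian sturgeon (*Acipenser baerii*) at 10 days post hatching, and the labels name no allele or transgene for any group. Treated larvae were kept in 200 µM neomycin for 1 h and their organs were taken at 12 hpt, while untreated larvae received no neomycin. Both organs of a time point were cut from the ventral head of 1 set of larvae, after staining with the vital dye DASPEI. The pieces from several larvae were pooled and each pool was divided into 2 parts before RNA extraction, so the spread between replicates holds no variation between dissections or sets of larvae, and pool and condition cannot be told apart. The other 6 libraries, of both organs at 24 hpt and of general epithelium (EP) of the trunk of untreated larvae, entered the estimate of the spread and give background levels.

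Neuromasts carry mechanosensory hair cells under a gelatinous cupula and sense water movement, whereas ampullary organs carry electroreceptor cells in canals filled with a conductive gel and sense weak electric fields. Both develop from lateral line placodes and share much of the hair cell programme, such as the transcription factors ATOH1 and POU4F3 and the calcium buffer parvalbumin-3. Neomycin, an aminoglycoside antibiotic, enters and kills hair cells, and in fishes the supporting cells around them divide or change fate to replace the lost cells. A difference between the responses of the organs may bear on how alike the early steps of regeneration are in electroreceptors and mechanoreceptors. It also holds any difference in the other tissues that were cut out with the organs. In bulk tissue, fewer cells of a type and less RNA per cell cannot be told apart.

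The 8 libraries held 7360075 to 10067958 expected counts each, with scaling factors (TMM) of 0.895 to 1.07, and levels are given as CPM, the share of a library scaled by TMM. Called genes had a log2 value above 1 in either direction together with an FDR under 0.01, where the edgeR FDR is the Benjamini-Hochberg adjusted p of edgeR's quasi-likelihood test over all 21978 genes. A value after ± is an approximate standard error of a log2 value. It was worked back from the test, as the absolute log2 value divided by the square root of its F statistic. With 2 libraries a group, the smallest two-sided p of an exact permutation test between 2 groups is 0.333. Each FDR therefore rests on the spread that edgeR shares between genes and between all 7 groups. Names were taken from matching proteins of Swiss-Prot or the sterlet, and assembled genes of 1 name may be copies between which reads were split.

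Of the genes called in both organs, nearly all changed in the same direction, and most called differences between the responses were negative. The difference was called for 394 genes (1.79% of those tested). The AO response was higher for 89 genes (0.405%) and lower for 305 (1.39%), beside a median of -0.10 over all genes and 5416 genes with an unadjusted p under 0.05. In AO, 2162 genes rose (9.84% of those tested) and 486 fell (2.21%), together 12.0%. In NM, 2435 rose (11.1%) and 291 fell (1.32%), together 12.4%. Of these, 1532 rose in both, 129 fell in both and 5 were called in opposite directions. Across the 21978 genes, the responses of the organs, which share no library, had a Pearson correlation of 0.64 and a Spearman correlation of 0.63, with genes that are not independent of each other.

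The number of calls depended on how the spread was estimated. A fit on only the 4 groups, which leaves 4 residual degrees of freedom in place of 7, called 41 genes higher and 84 lower, and 122 of its 125 calls were among the 394. With 1 of the 8 libraries left out in turn the total ran from 190 (without NM untreated replicate 1) to 232 (without NM 12 hpt replicate 1), and 131 of the 394 calls were kept in all 8 of these fits. With the replicate number as a block, 152 genes were called higher and 437 lower. For genes named below whose call did not hold in each of the fits with 1 library left out, the number of fits that kept it is given. Among the named genes, DESeq2 did not call FGFR2, RSPH1, SPEF2, DNAH7, DNAI2, TEKT1, TEKT4, FOXJ1-B, NOS2, TBR1, LHX2, OLIG2, CACNA1B, KCNJ1, PTCH1, TBX18, KIF20B, ADAMTS3, MMP13, AGXT or 1 of the LOXL1 contigs. Limma-voom did not call CACNA1A, CACNA1B, DNAH7, DNAI2, ADAMTS3, TBX18, OLIG2, KLF1 or 1 of the ALAS2 contigs. Neither limma-voom nor a fit with no filter on low counts called HSPB1 or the FGFBP2 contig with a higher AO response. The fit on only the 4 groups called none of the genes in these 3 lists, and it also did not call MUC5AC, COCH, COL6A3, OSR2-A, GRIN1, GPR151, EYA4, XIRP2, GADD45B, ACVR1, CACNA2D1, KCNC1, ADAMTS15, either LOXL1 or FGFBP2 contig, FOS (TRINITY_DN108039_c0_g1) or ITIH2 (TRINITY_DN97204_c1_g2).

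**Figure D1:**
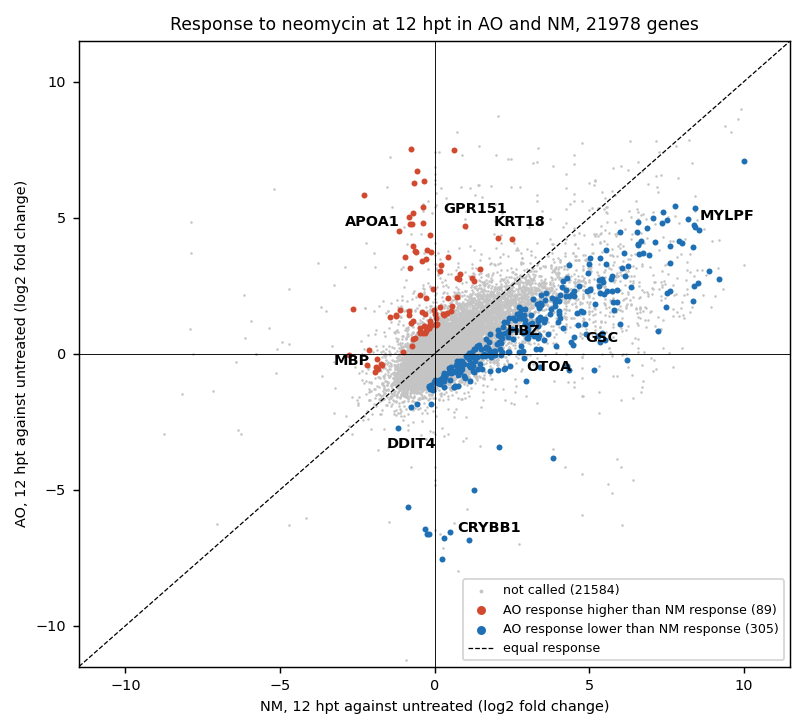
Log2 fold change at 12 hpt against untreated in AO (vertical axis) and in NM (horizontal axis) for the 21978 genes tested, with the 89 genes whose AO response was higher in red, the 305 whose AO response was lower in blue and the line of equal response dashed. Most blue genes lie to the right, where NM levels rose, with a separate group of lens genes at the bottom, and most red genes lie at the top with NM values near 0.

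The 305 genes with a lower AO response were mostly genes that rose in NM. Of them, 129 rose in both organs, 105 rose in NM only, 30 fell in AO only, 1 fell in both and 40 were called in neither organ alone. Their median log2 fold change was 0.64 in AO and 2.79 in NM. The 89 genes with a higher AO response comprised 56 that rose in AO only, 11 that fell in NM only, 5 that rose in both, 5 that rose in AO and fell in NM and 12 called in neither, with medians of 1.59 in AO and -0.37 in NM. Absolute differences had a median of 1.92 for the lower and 1.90 for the higher genes and reached 7.94 and 8.29. The value of 8.29 belonged to a plasma protein contig at 0 CPM in untreated AO, so its size depends on the prior count of the fit. Its call was kept in 0 of 8 fits with 1 library left out.

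For both sets, more genes were called between the organs without treatment than at 12 hpt, though a contrast that holds both gaps fixes part of this. Among the 305 genes with a lower AO response, 193 were called higher and 0 lower in untreated AO than in untreated NM (5.20% and 0.828% of all genes tested, together 6.02%). At 12 hpt, 38 were higher and 60 lower in AO than in NM (2.95% and 0.764% of all genes, together 3.72%). Their median log2 fold change of AO to NM was 1.63 without treatment and -0.43 at 12 hpt. Among the 89 with a higher AO response, 55 were called lower and 0 higher in untreated AO than in untreated NM. At 12 hpt, 14 of them were called higher and 27 lower in AO than in NM. Their medians were -1.33 without treatment and -0.07 at 12 hpt. The organs were closer at 12 hpt than without treatment for 240 of the 305 (78.7%) and 67 of the 89 (75.3%), beside 65.9% of all genes tested. In 25 of the 305 genes the 2 libraries of untreated NM held at most 3 counts together, and in 8 of the 89 those of untreated AO did. Of all 21978 genes tested, 914 were this low in untreated NM and 256 in untreated AO.

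Genes of other tissues differed between the groups, and they are given here before the sensory genes because their levels moved with the contrast. Of the 394 called genes, 93 were on at least 1 of 9 lists of genes of other tissues, 20 of the 89 higher and 73 of the 305 lower. These 93 are 23.6% of the called genes, and 417 genes, or 1.90% of those tested, were on these lists. The lists were written with earlier results of these data known, so these shares are a description and no independent evidence. The share of all counts on the skeletal muscle list was 1.36% and 1.32% in AO at 12 hpt, against 0.127% and 0.114% in untreated AO, and 2.13% and 2.09% in NM at 12 hpt, against 0.0690% and 0.0613% in untreated NM. The blood list took 0.505% and 0.554% in AO at 12 hpt, against 0.448% and 0.481% in untreated AO, and 1.09% and 1.12% in NM at 12 hpt, against 0.154% and 0.170% in untreated NM. The lens list took 0.00208% and 0.00251% in AO at 12 hpt, against 0.0728% and 0.0732% in untreated AO, and 0.00284% and 0.00277% in NM at 12 hpt, against 0.00242% and 0.00237% in untreated NM. Of 143 muscle contigs, 1 was at 0 in AO at 12 hpt, against 19 in untreated AO, and 3 in NM at 12 hpt, against 26 in untreated NM. On the lens list 4 of 26 were at 0 in AO at 12 hpt, against 1 in untreated AO. The part of muscle, blood or lens RNA in the other differences was not tested. Without the genes of the 9 lists, 69 genes had a higher and 232 a lower AO response.

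**Figure D2:**
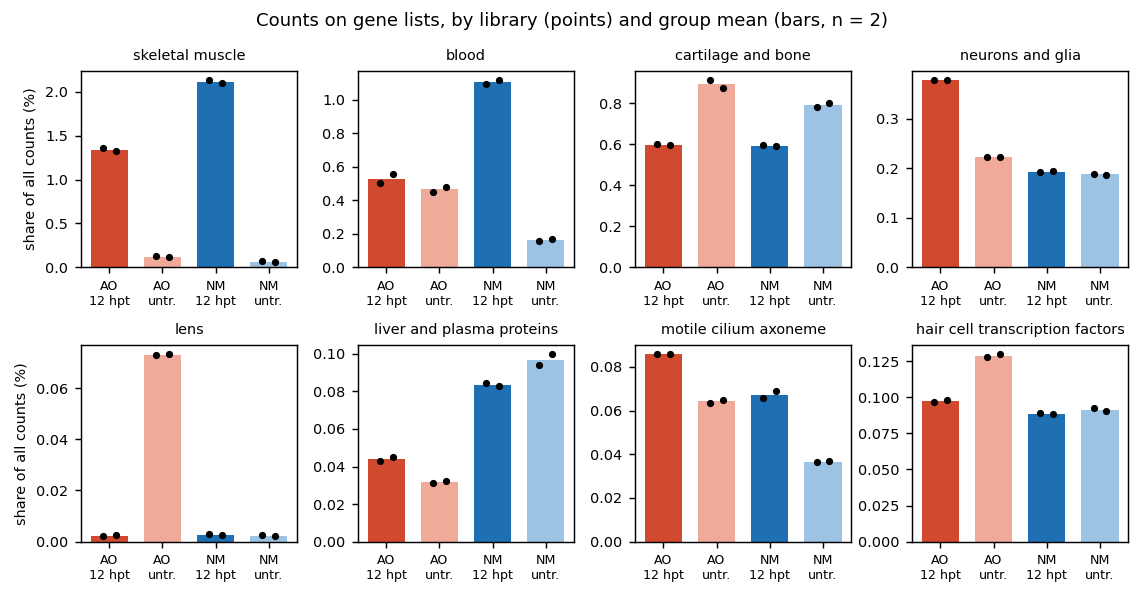
Share of all counts (%, linear axes from 0) on 8 gene lists in each library (points) and the mean of the 2 libraries of each group (bars), with AO in red, NM in blue and 12 hpt in the darker tone. Muscle shares are high at 12 hpt in both organs, the blood share is highest in NM at 12 hpt, the lens share is high only in untreated AO among these 4 groups, and the share of hair cell transcription factors is highest in untreated AO.

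The hair cell markers parvalbumin-3, ATOH1 and POU4F3 were lower at 12 hpt than without treatment in both organs. Parvalbumin-3 (TRINITY_DN97159_c2_g2), which buffers calcium in hair cells, had 760.3 and 800.1 CPM in AO at 12 hpt, against 1554 and 1578 CPM in untreated AO. NM held 874 and 905 CPM at 12 hpt, against 1748 and 1801 CPM without treatment. All 4 libraries at 12 hpt lay below all 4 untreated libraries, and the log2 fold change was -1.01 in AO and -0.996 in NM, on either side of the fold threshold. The difference between the responses was -0.01 ± 0.097, edgeR FDR = 0.976. ATOH1, the transcription factor that starts hair cell differentiation, had 11.3 and 11.95 CPM in AO at 12 hpt, against 23.9 and 21.9 CPM in untreated AO. NM held 12.9 and 15.2 CPM at 12 hpt, against 29.2 and 28.4 CPM without treatment. Here too both organs were lower at 12 hpt, with a difference of 0.05 ± 0.26, edgeR FDR = 0.937. POU4F3, needed for hair cell survival, was 5.52 and 6.19 CPM in AO at 12 hpt, against 10.8 and 9.98 CPM in untreated AO, and 5.81 and 6.45 CPM in NM at 12 hpt, against 9.39 and 8.22 CPM in untreated NM. Its difference was -0.31 ± 0.22, edgeR FDR = 0.455, and none of the differences of these 3 genes was called. The levels of all 3 in every library were above those of EP, whose means were 55.8 CPM for parvalbumin-3, 2.20 CPM for ATOH1 and 1.15 CPM for POU4F3.

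Among the 38 genes tested on the list of hair cell transcription factors and placode genes, 1 was called (2.63%, beside 1.79% of all genes), with a median difference of -0.35 (all genes: -0.10). In AO, 4 of them rose and 5 fell (all genes: 9.84% and 2.21%), and in NM 6 rose and 1 fell (all genes: 11.1% and 1.32%). The called gene was EYA4, a transcriptional coactivator that is needed for hearing in mammals. It had 41.4 and 49.1 CPM in AO at 12 hpt, against 104 and 87.03 CPM in untreated AO. NM held 73.03 and 66.1 CPM at 12 hpt, against 64.9 and 64.4 CPM without treatment. AO at 12 hpt was the lowest group and untreated AO the highest, with no overlap between them, and NM had a log2 fold change of 0.10 (difference -1.18 ± 0.16, edgeR FDR = 0.00268, kept in 3 of 8 fits with 1 library left out, edgeR FDR up to 0.0145). EYA1, a coactivator of placode development, had differences of -0.58 and -0.37 for 2 copies, neither of them called. On the list of hair bundle, calcium and synapse genes 1 of 119 was called (0.840%), with a median of -0.32. On this list 18 rose and 3 fell in AO, and 24 rose and 1 fell in NM, and the median change on the log2 scale was 0.27 for AO and 0.60 for NM (all genes: 0.04 and 0.06), so it did not follow the 3 markers above. It was XIRP2, an actin-binding protein known from muscle and from hair bundles, at 10.3 and 10.2 CPM in AO at 12 hpt, against 9.42 and 8.68 CPM in untreated AO. NM held 16.8 and 15.5 CPM at 12 hpt, against 6.59 and 5.04 CPM without treatment. It rose in NM only (difference -1.30 ± 0.17, edgeR FDR = 0.00193, kept in 6 of 8, lost without AO untreated replicate 1 or AO 12 hpt replicate 2), and its level in EP, 38.2 CPM, exceeded that in either organ.

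Genes of the matrix over the sensory cells gave 3 called differences, 1 of them among the 10 of smallest FDR. OTOA encodes otoancorin, which anchors acellular gels to the inner ear epithelium. It had 57.8 and 53.8 CPM in AO at 12 hpt, against 53.5 and 51.9 CPM in untreated AO. NM held 40.4 and 38.95 CPM at 12 hpt, against 5.47 and 5.48 CPM without treatment. AO levels were close with and without treatment, NM at 12 hpt lay below them and untreated NM was lowest by far, and the difference between the responses was -2.77 ± 0.12, edgeR FDR = 3.1e-06. Of 4 genes named OTOA this was the only one called. COCH, cochlin, an abundant protein of the inner ear matrix, moved the other way. It had 38.8 and 36.8 CPM in AO at 12 hpt, against 58.1 and 54.5 CPM in untreated AO. NM held 30.2 and 22.4 CPM at 12 hpt, against 101 and 86.8 CPM without treatment. COCH fell in NM only, and the difference was 1.26 ± 0.22, edgeR FDR = 0.00819, kept in 1 of 8 fits with 1 library left out. MUC5AC, a secreted gel-forming mucin, had 34.1 and 32.8 CPM in AO at 12 hpt, against 14.4 and 12.3 CPM in untreated AO. NM held 29.2 and 30.1 CPM at 12 hpt, against 4.77 and 5.37 CPM without treatment. It rose in both organs and more in NM (-1.21 ± 0.14, edgeR FDR = 0.00101). In all, 1 of the 24 genes of this list was called higher and 2 lower (12.5% called, beside 1.79% of all genes). The median difference was -0.48, or -0.0013 with every group set to at least 3 counts. The list is not particular to the organs, as it took 0.554% and 0.584% of counts in EP, beside 0.442% to 0.664% in the 8 libraries.

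More genes of the motile cilium rose in NM than in AO. Kinocilia of hair cells have an axoneme of the motile type, built from dyneins, radial spokes and tektins. Of 117 such genes, 58 rose in NM and 15 in AO (all genes: 11.1% and 9.84%). A lower AO response was called for 6 and a higher one for 0 (5.13% called, beside 1.79% of all genes), and the median difference was -0.90 (all genes: -0.10). RSPH1, a radial spoke head protein, had 20.002 and 21.1 CPM in AO at 12 hpt, against 10.9 and 10.1 CPM in untreated AO. NM held 15.4 and 15.97 CPM at 12 hpt, against 3.22 and 3.51 CPM without treatment. Its untreated NM libraries were the lowest, while at 12 hpt AO was above NM. The log2 fold change was 0.97 in AO and 2.21 in NM, a difference of -1.24 ± 0.14, edgeR FDR = 0.000864. SPEF2, a protein of the central pair apparatus, had 4.42 and 3.95 CPM in AO at 12 hpt, against 4.19 and 3.99 CPM in untreated AO, and 4.07 and 3.85 CPM in NM at 12 hpt, against 0.981 and 1.21 CPM in untreated NM. For SPEF2 only untreated NM stood apart (-1.80 ± 0.27, edgeR FDR = 0.00456, kept in 0 of 8). The other called members were DNAH7 and DNAI2, a heavy and an intermediate chain of axonemal dynein, and the tektins TEKT1 and TEKT4, with differences of -2.20, -1.41, -1.73 and -1.62, and none of these 4 calls was kept in more than 1 of 8 fits with 1 library left out. FOXJ1-B, named after the transcription factor that switches on motile cilium genes, was chosen here after its values were seen. It had 6.99 and 6.83 CPM in AO at 12 hpt, against 4.38 and 4.89 CPM in untreated AO. NM held 5.08 and 4.87 CPM at 12 hpt, against 0.701 and 0.548 CPM without treatment. As for the axoneme genes, untreated NM was the low group (-2.41 ± 0.30, edgeR FDR = 0.00156, kept in 7 of 8, lost without NM untreated replicate 2). DESeq2 called 0 of the 117 and limma-voom 4, while 57 had an unadjusted edgeR p under 0.05. In 6 of the 6 called axoneme genes, untreated NM had the lowest mean of the 4 groups, which is in part built into the contrast that called them. The EP means of RSPH1, SPEF2, TEKT1 and DNAH7 were 0.408 CPM, 0.479 CPM, 0.609 CPM and 1.82 CPM. On the olfactory epithelium list, 7 of 12 genes rose in NM and 3 in AO. A lower AO response was called for 2 (16.7%, median difference -1.55), OMP (-3.58) and LHX2 (-3.16, kept in 6 of 8). OMP averaged 43.3 CPM in AO at 12 hpt, against 21.1 CPM in untreated AO. NM averaged 37.8 CPM at 12 hpt, against 1.46 CPM without treatment. The part of olfactory tissue in the axoneme differences was not tested.

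Among calcium and potassium channel genes, 81 of 178 rose in AO and 71 in NM (all genes: 9.84% and 11.1%), 5 had a called lower and 0 a called higher AO response (2.81%, near the 1.79% of all genes), and the median difference was -0.55, or -0.39 with every group set to at least 3 counts. CACNA1B, the pore subunit of N-type channels that trigger transmitter release in neurons, had 10.4 and 10.1 CPM in AO at 12 hpt, against 4.66 and 3.89 CPM in untreated AO. NM held 6.68 and 6.11 CPM at 12 hpt, against 0.561 and 0.658 CPM without treatment. It rose in both organs, and untreated NM was below the other groups (-2.08 ± 0.30, edgeR FDR = 0.00365, kept in 1 of 8). CACNA2D1, an accessory subunit that traffics calcium channels to the membrane, had 21.7 and 24.1 CPM in AO at 12 hpt, against 8.18 and 7.98 CPM in untreated AO. NM held 25.1 and 22.8 CPM at 12 hpt, against 2.80 and 4.16 CPM without treatment. At 12 hpt the organs overlapped, and untreated NM was below untreated AO (-1.24 ± 0.20, edgeR FDR = 0.00637, kept in 1 of 8). KCNC1, a fast delayed rectifier potassium channel of neurons, had 187 counts over the libraries of AO at 12 hpt, against 57.6 in untreated AO, and 73.9 in NM at 12 hpt, against 0 in untreated NM. In NM this was at least a 25.5-fold rise if 3 counts are assumed in untreated NM, and the called difference was kept in 2 of 8 fits with 1 library left out. CACNA1A, of P/Q-type channels, and KCNJ1, an inward rectifier of transporting epithelia, were also called lower, in 0 and 1 of these fits. DESeq2 called 5 of the 178, without CACNA1B and KCNJ1, and limma-voom 4, without CACNA1A and CACNA1B. Each tool thus also called channel genes that edgeR did not call.

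**Figure D3:**
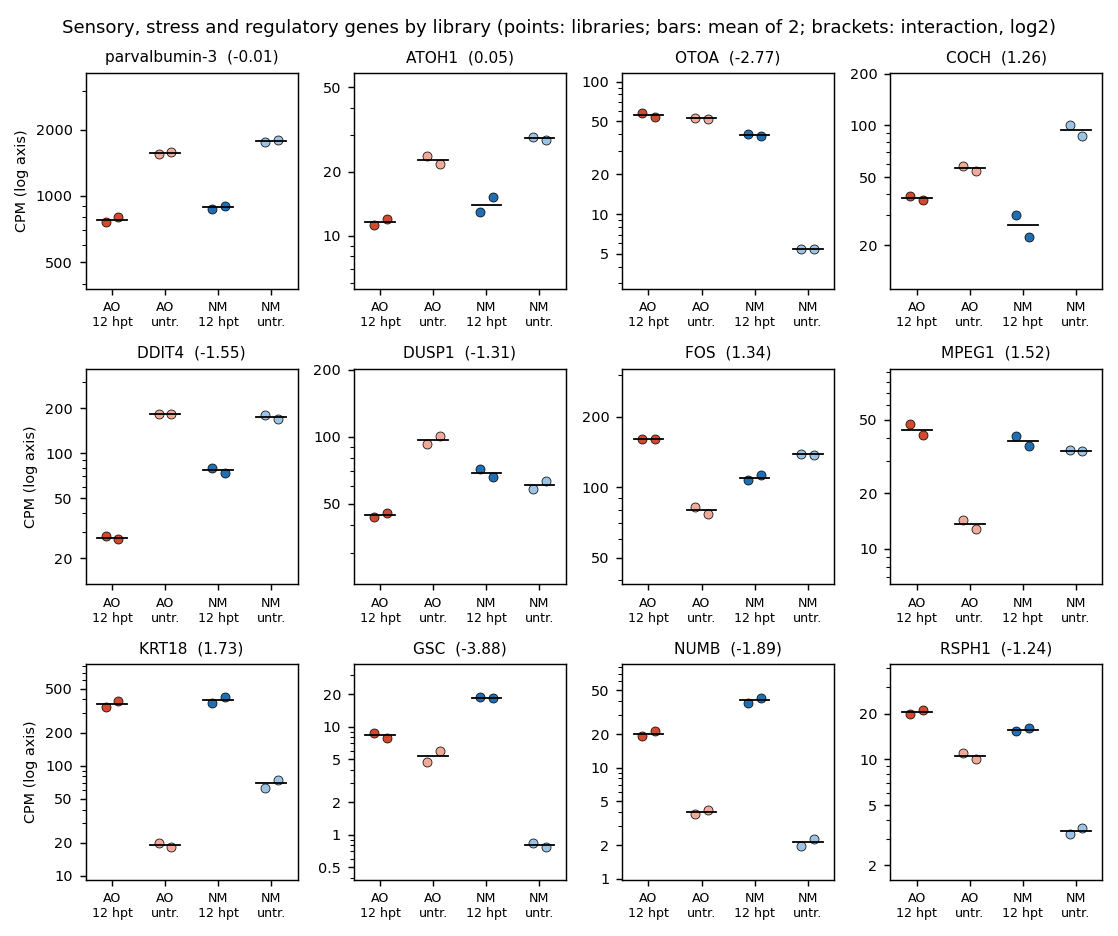
TMM-normalized CPM (log axes) of 12 sensory, stress and regulatory genes in the 8 libraries (points) with the mean of each group (bars) and the difference between the responses in brackets. Parvalbumin-3 and ATOH1 are lower at 12 hpt by about the same step in both organs, OTOA, GSC and RSPH1 are lowest in untreated NM, and DDIT4, DUSP1 and MPEG1 show their widest step within AO.

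Neuronal and myelin genes went in opposite directions. Of 97 genes of neurons and glia, 61 rose in AO and 61 in NM (all genes: 9.84% and 11.1%). A lower AO response was called for 16 and a higher one for 3 (19.6% called, beside 1.79% of all genes), and the median difference was -0.69. The lower ones were genes of neurons, such as neurofilaments, synaptic proteins and the RNA-binding ELAV proteins. NEFM, the medium neurofilament subunit of axons, had 26.4 and 26.6 CPM in AO at 12 hpt, against 11.3 and 13.5 CPM in untreated AO. NM held 19.6 and 20.2 CPM at 12 hpt, against 0.561 and 0.767 CPM without treatment. It rose in both organs, and the untreated NM libraries were lower than all others by over an order of magnitude (-3.75 ± 0.23, edgeR FDR = 2.0e-05). ELAVL4, which stabilizes mRNA in differentiating neurons, had 40.004 and 41.6 CPM in AO at 12 hpt, against 11.8 and 10.2 CPM in untreated AO. NM held 14.7 and 13.6 CPM at 12 hpt, against 0.140 and 0.329 CPM without treatment. Here the AO libraries at 12 hpt were the highest, yet the step was larger in NM (-3.87 ± 0.29, edgeR FDR = 7.7e-05). GRIN1, the obligatory NMDA receptor subunit, was chosen after its values were seen and had 26.9 and 29.7 CPM in AO at 12 hpt, against 5.80 and 5.79 CPM in untreated AO, and 14.2 and 11.6 CPM in NM at 12 hpt, against 0.421 and 0.658 CPM in untreated NM, with the same order of the groups (-2.21 ± 0.27, edgeR FDR = 0.00131, kept in 7 of 8, lost without NM untreated replicate 1). For 15 of the 19 called genes the order of the means was AO at 12 hpt, NM at 12 hpt, untreated AO, untreated NM. The low place of untreated NM in these called genes is in part built into the contrast.

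Genes of this list with a higher AO response included the myelin genes MBP and MAG. MBP, which compacts the myelin sheath around axons, had 134 and 129.6 CPM in AO at 12 hpt, against 151.5 and 153 CPM in untreated AO. NM held 84.5 and 95.6 CPM at 12 hpt, against 334 and 326 CPM without treatment. Untreated NM was the highest and NM at 12 hpt the lowest group, with AO between them, and the log2 fold change was -0.21 in AO and -1.87 in NM (difference 1.66 ± 0.11, edgeR FDR = 2.6e-05). MAG, an adhesion protein of the inner myelin layer, had 21.1 and 19.96 CPM in AO at 12 hpt, against 27.6 and 26.05 CPM in untreated AO. NM held 13.2 and 12.1 CPM at 12 hpt, against 42.5 and 42.1 CPM without treatment. It fell in NM only (1.36 ± 0.11, edgeR FDR = 0.000143). Both were also detected in EP, at mean levels of 42.3 CPM (MBP) and 6.59 CPM (MAG), below every library of the 4 groups.

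In the lists of 5 signalling pathways that are known from hair cell regeneration, 0 to 3 genes each were called, or 0% to 6.67%, beside 1.79% of all genes. Of 97 Wnt genes edgeR called 0 (median -0.14), and DESeq2 and limma-voom called 0 as well. An unadjusted edgeR p under 0.05 was found for 26, beside 5416 of all 21978 genes. In AO 6 of the 97 rose and 8 fell (all genes: 9.84% and 2.21%), with a median log2 fold change of -0.14. In NM 5 rose and 6 fell (all genes: 11.1% and 1.32%), with a median of -0.01. CTNNB1, which encodes beta-catenin, had differences of -0.25 and 0.15 in its 2 contigs of highest level. Of 59 Notch genes 1 was called (1.69%). It was NUMB, an inhibitor of Notch signalling, with 19.1 and 21.2 CPM in AO at 12 hpt, against 3.81 and 4.19 CPM in untreated AO. NM held 38.3 and 42.7 CPM at 12 hpt, against 1.96 and 2.30 CPM without treatment. NUMB rose in both organs, more in NM (-1.89 ± 0.22, edgeR FDR = 0.00104), and its level in EP, 92.8 CPM, exceeded all 8 libraries. Its other 3 contigs were not called and had differences of up to 1.44. In the Hedgehog list 1 of 27 was called (3.70%, median -0.46). PTCH1, the receptor that Hedgehog ligands release from its inhibitory role and itself a target of the pathway, had 7.73 and 8.64 CPM in AO at 12 hpt, against 7.23 and 7.19 CPM in untreated AO. NM held 7.55 and 8.61 CPM at 12 hpt, against 3.36 and 3.29 CPM without treatment. Untreated NM was the low group, and the difference of -1.10 ± 0.17, edgeR FDR = 0.00548 was kept in 1 of 8 fits with 1 library left out and was not called by DESeq2 (adjusted p = 0.116). Of 4 contigs named PTCH1 this was the only one called, and their differences ran from -3.06 to -0.72. PTCH1 is 1 of the 5 regulators that the study selected on contrasts of these libraries, so its change is a description and no independent evidence. Of the other 4, TBX18, a T-box repressor, was called (-2.56 ± 0.43, edgeR FDR = 0.00746, kept in 0 of 8), and PAX2A (-2.31 ± 0.52, edgeR FDR = 0.0270), FGF8 (-2.71 ± 0.86, edgeR FDR = 0.0840) and EP300 (-1.14 ± 0.50, edgeR FDR = 0.199) were not.

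Among 45 FGF genes 3 were called, 1 higher and 2 lower (6.67%, beside 1.79% of all genes). FGFR2, a receptor for FGF ligands, had 107 and 102 CPM in AO at 12 hpt, against 246 and 238 CPM in untreated AO. NM held 129 and 117 CPM at 12 hpt, against 142 and 136 CPM without treatment. Its level fell in AO only, where the groups did not overlap (-1.03 ± 0.10, edgeR FDR = 0.000416). That value lies next to the fold threshold, and it dropped under it without NM untreated replicate 2, AO 12 hpt replicate 2 or NM 12 hpt replicate 1 (log2 values up to -0.95), and by DESeq2 or with its size factors (both -0.99). The other 2 were contigs named FGFBP2, a name given for binding FGF ligands. They differed in direction, with 1.12 (TRINITY_DN92573_c2_g1, kept in 0 of 8) and -1.22 (TRINITY_DN109700_c4_g1, kept in 1 of 8). In the BMP and TGF-beta list 2 of 73 were called lower and 0 higher (2.74% called, beside 1.79% of all genes). INHBA, the subunit of activin A, rose in NM only (-1.51 ± 0.23, edgeR FDR = 0.00418, kept in 0 of 8), and ACVR1, a type I receptor for BMP and activin ligands, fell in AO only (-1.52 ± 0.25, edgeR FDR = 0.00611, kept in 1 of 8).

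Cell division was represented by the RNA of 111 genes, and the number of dividing cells was not measured. In AO 5 fell and 1 rose (all genes: 2.21% and 9.84%), and in NM 0 fell and 1 rose (all genes: 1.32% and 11.1%). The median log2 fold change was -0.54 in AO and -0.33 in NM. Of these genes 85 had a negative difference, beside 12808 of all 21978 genes, and 1 was called (0.901%, beside 1.79% of all genes). The median difference was -0.21, beside -0.10 over all genes. The called gene was KIF20B, a kinesin of cytokinesis, with 6.38 and 6.62 CPM in AO at 12 hpt, against 12.0 and 13.3 CPM in untreated AO, and 8.42 and 7.70 CPM in NM at 12 hpt, against 7.01 and 7.67 CPM in untreated NM. Untreated AO stood above the other 3 groups (-1.08 ± 0.18, edgeR FDR = 0.00637, kept in 0 of 8, DESeq2 adjusted p = 0.127). EdgeR called 0 of 75 ribosomal protein genes (median 0.26, 22 at an unadjusted p under 0.05) and 0 of 58 genes of oxidative phosphorylation (median 0.18, 13 at an unadjusted p under 0.05), and DESeq2 and limma-voom called 0 of these.

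The stress genes DDIT4 and DUSP1 had a lower AO response. DDIT4, which restrains mTORC1 under stress and glucocorticoids, was the only gene called in all 3 comparisons that fell in both organs. It had 27.9 and 26.8 CPM in AO at 12 hpt, against 183 and 182 CPM in untreated AO. NM held 79.999 and 73.5 CPM at 12 hpt, against 181 and 169 CPM without treatment. Untreated organs were alike, and AO at 12 hpt was far below NM at 12 hpt, with log2 fold changes of -2.74 and -1.19 (difference -1.55 ± 0.12, edgeR FDR = 0.000104). DUSP1, a phosphatase that ends MAP kinase signalling, had 43.6 and 45.4 CPM in AO at 12 hpt, against 92.9 and 101 CPM in untreated AO. NM held 71.9 and 65.8 CPM at 12 hpt, against 58.04 and 63.1 CPM without treatment. It fell in AO only (-1.31 ± 0.13, edgeR FDR = 0.00047). PPP1R15B, which recruits a phosphatase to restart translation after stress, had 27.98 and 27.7 CPM in AO at 12 hpt, against 47.3 and 44.9 CPM in untreated AO. NM held 51.3 and 50.8 CPM at 12 hpt, against 34.3 and 36.3 CPM without treatment. AO was lower and NM higher at 12 hpt, each by less than the fold threshold, and the difference was -1.26 ± 0.10, edgeR FDR = 0.000132. AKAP12, a scaffold of protein kinase A, had the same pattern, with 29.2 and 28.5 CPM in AO at 12 hpt, against 41.1 and 43.4 CPM in untreated AO, and 39.9 and 41.4 CPM in NM at 12 hpt, against 22.9 and 22.1 CPM in untreated NM and a difference of -1.41 ± 0.097, edgeR FDR = 4.9e-05. DDIT4, PPP1R15B and AKAP12 were chosen after their values were seen.

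FOS, a subunit of the AP-1 transcription factor that rises within minutes of a stimulus, had 3 contigs, and 2 were called in opposite directions. The more abundant, TRINITY_DN111924_c1_g1, had 160.0 and 159.8 CPM in AO at 12 hpt, against 82.4 and 77.05 CPM in untreated AO. NM held 107 and 112 CPM at 12 hpt, against 139 and 138 CPM without treatment. It rose in AO at a log2 fold change of 1.00, close to the threshold, and not in NM (-0.33), a difference of 1.34 ± 0.091, edgeR FDR = 4.4e-05. TRINITY_DN108039_c0_g1 had 2.82 and 3.09 CPM in AO at 12 hpt, against 4.95 and 6.19 CPM in untreated AO. NM held 10.2 and 9.29 CPM at 12 hpt, against 5.19 and 4.71 CPM without treatment. It was lower in AO and higher in NM at 12 hpt, with no overlap within either organ (-1.88 ± 0.23, edgeR FDR = 0.00141). HSPB1, a small heat shock protein abundant in muscle and epithelia, rose in both organs and more in NM (-1.67 ± 0.30, edgeR FDR = 0.00954, kept in 1 of 8), and GADD45B, a stress sensor upstream of p38 and JNK kinases, was also called lower (-1.07 ± 0.16, edgeR FDR = 0.00380, kept in 2 of 8). In all, 4 of 89 immediate early and heat shock genes were called (4.49%, 1 higher, 3 lower, median -0.10), and 1 of 51 apoptosis and p53 genes (1.96%). Over all genes 1.79% were called and the median was -0.10 as well. An unadjusted edgeR p under 0.05 was found for 40 of the 89 and 11 of the 51, beside 5416 of all 21978 genes.

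Macrophage and inflammation genes split by direction. MPEG1, a pore-forming protein of macrophages, had 47.1 and 41.2 CPM in AO at 12 hpt, against 14.3 and 12.9 CPM in untreated AO. NM held 40.9 and 35.9 CPM at 12 hpt, against 34.2 and 33.6 CPM without treatment. It rose in AO only, and untreated AO alone was low (1.52 ± 0.15, edgeR FDR = 0.000416). MRC1, the mannose receptor of macrophages, had 9.57 and 10.1 CPM in AO at 12 hpt, against 11.1 and 11.2 CPM in untreated AO. NM held 19.5 and 19.02 CPM at 12 hpt, against 7.99 and 7.56 CPM without treatment. It rose in NM only (-1.48 ± 0.12, edgeR FDR = 0.000146), with NM at 12 hpt above the other groups. NOS2, the inducible nitric oxide synthase, had 13.9 and 14.5 CPM in AO at 12 hpt, against 5.99 and 6.59 CPM in untreated AO. NM held 27.005 and 26.4 CPM at 12 hpt, against 5.05 and 5.48 CPM without treatment. It rose in both organs and by the larger step in NM (-1.16 ± 0.13, edgeR FDR = 0.00101). Of 92 genes of this list 3 were called higher and 2 lower (5.43%, beside 1.79% of all genes), and the median was 0.04 (all genes: -0.10). The other 2 higher ones were contigs of complement C3, which the liver makes. Of these, TRINITY_DN116862_c2_g2 had 2.82 and 2.56 CPM in AO at 12 hpt, against 0.190 and 0.299 CPM in untreated AO. NM held 11.47 and 10.2 CPM at 12 hpt, against 14.2 and 14.5 CPM without treatment. Untreated AO was the low group and both NM groups were above AO (3.79 ± 0.46, edgeR FDR = 0.00125, kept in 7 of 8, lost without AO untreated replicate 1).

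Among the called genes outside the lists were COL6A3, ASPN, OSR2-A and RRBP1, all with a lower AO response. COL6A3, a chain of collagen VI around cells of connective tissue, had 67.2 and 59.4 CPM in AO at 12 hpt, against 123 and 109 CPM in untreated AO, and 80.1 and 76.5 CPM in NM at 12 hpt, against 62.95 and 66.7 CPM in untreated NM. ASPN, asporin, a small proteoglycan of tendon and periosteum, had 56.6 and 63.2 CPM in AO at 12 hpt, against 112 and 119 CPM in untreated AO, and 73.5 and 74.4 CPM in NM at 12 hpt, against 65.9 and 62.4 CPM in untreated NM. For both genes untreated AO stood above the other 3 groups, and the differences were -1.14 ± 0.13, edgeR FDR = 0.00101 and -1.16 ± 0.10, edgeR FDR = 0.000198. OSR2-A, named after a transcription factor of limb and palate mesenchyme, had 16.6 and 14.4 CPM in AO at 12 hpt, against 51.95 and 58.9 CPM in untreated AO. NM held 24.8 and 21.2 CPM at 12 hpt, against 34.6 and 33.1 CPM without treatment. It fell in AO, at a log2 fold change of -1.84, and NM was at -0.56, under the fold threshold (difference -1.28 ± 0.16, edgeR FDR = 0.00142). RRBP1, a ribosome receptor of the endoplasmic reticulum in secretory cells, had 20.4 and 21.02 CPM in AO at 12 hpt, against 80.5 and 70.6 CPM in untreated AO. NM held 27.3 and 28.8 CPM at 12 hpt, against 31.4 and 29.6 CPM without treatment. It fell in AO only (-1.75 ± 0.14, edgeR FDR = 0.000146). These 4 were chosen after their values were seen. Of 128 matrix remodelling enzymes 1 was called higher and 4 lower (3.91%, beside 1.79% of all genes), and the median difference was -0.41 (all genes: -0.10). Called lower were 2 contigs of LOXL1, which crosslinks elastin, and the procollagen or proteoglycan proteases ADAMTS3 and ADAMTS15, with calls kept in 5, 0, 0 and 3 of 8 fits. Called higher was MMP13, a collagenase, at 3.80 and 3.41 CPM in AO at 12 hpt, against 0.381 and 0.200 CPM in untreated AO, and 2.03 and 1.81 CPM in NM at 12 hpt, against 1.54 and 1.32 CPM in untreated NM. MMP13 rose in AO only (3.13 ± 0.43, edgeR FDR = 0.00274), and its call was kept in 1 of 8.

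KRT18, a keratin of simple epithelia, was the 1 called gene of 100 keratin and cell junction genes (1%, beside 1.79% of all genes, median -0.13) and rose in both organs. It had 338 and 384 CPM in AO at 12 hpt, against 19.98 and 18.5 CPM in untreated AO. NM held 368 and 417 CPM at 12 hpt, against 63.4 and 74.8 CPM without treatment. The organs overlapped at 12 hpt, and untreated AO was the lowest group, so the step was larger in AO (1.73 ± 0.19, edgeR FDR = 0.000777). GPR151, an orphan receptor known from neurons of the habenula and sensory ganglia, had 20.4 and 25.7 CPM in AO at 12 hpt, against 0.856 and 0.898 CPM in untreated AO. NM held 1.45 and 1.93 CPM at 12 hpt, against 0.561 and 1.10 CPM without treatment. Only AO at 12 hpt was above 2 CPM, a difference of 3.71 ± 0.52, edgeR FDR = 0.00279 that was kept in 4 of 8 fits with 1 library left out (edgeR FDR up to 0.0523). It was chosen after its values were seen. CLEC4F, named after a lectin of liver macrophages in rodents, had 39.1 and 37.1 CPM in AO at 12 hpt, against 5.61 and 5.69 CPM in untreated AO. NM held 53.1 and 53.7 CPM at 12 hpt, against 30.3 and 31.2 CPM without treatment. Untreated AO was the only low group (1.96 ± 0.13, edgeR FDR = 2.7e-05). GSC, the homeobox factor goosecoid of head mesenchyme, had 8.71 and 7.90 CPM in AO at 12 hpt, against 4.76 and 5.99 CPM in untreated AO. NM held 18.9 and 18.2 CPM at 12 hpt, against 0.841 and 0.767 CPM without treatment. It rose in NM only, and NM at 12 hpt was above both groups of AO (-3.88 ± 0.22, edgeR FDR = 1.5e-05). The EP mean of GSC was 33.7 CPM, higher than in all 8 libraries.

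**Figure D4:**
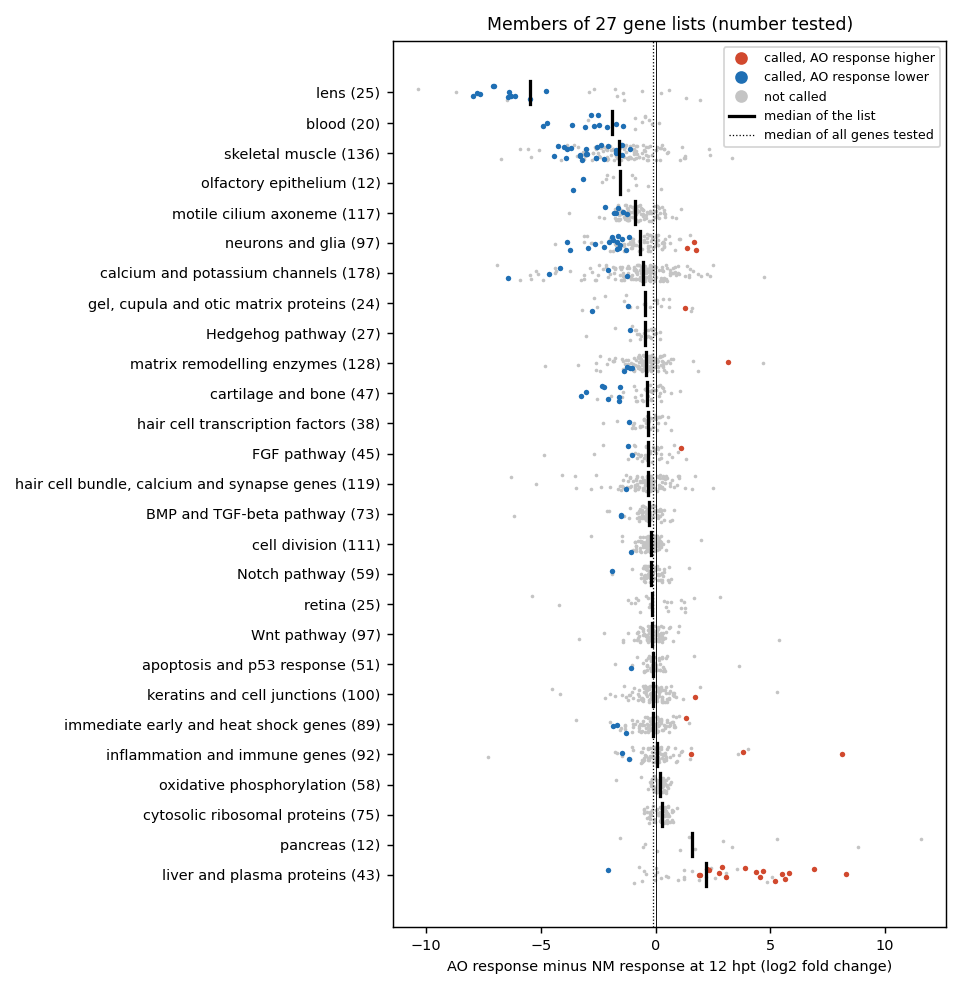
Difference between the AO and NM responses (log2, horizontal axis) of the members of 27 gene lists, ordered by median, with called genes in red (AO response higher) and blue (lower), the median of each list as a bar and the median of all genes tested dotted. Lens, blood and skeletal muscle lie lowest, liver and plasma proteins highest, and the Wnt, Notch, BMP, FGF and Hedgehog lists have medians of -0.14 to -0.46, beside -0.10 for all genes.

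Skeletal muscle genes rose in both organs, and more in NM. Of 136 tested, 112 rose in AO and 112 in NM (all genes: 9.84% and 11.1%), with median log2 fold changes of 3.24 and 5.39. A lower AO response was called for 24 and a higher one for 0 (17.6% called, beside 1.79% of all genes). The median difference was -1.59, or -1.40 with every group set to at least 3 counts. MYLPF, the regulatory light chain of fast muscle myosin, had 1736 and 1769 CPM in AO at 12 hpt, against 62.4 and 71.5 CPM in untreated AO. NM held 4639 and 4603 CPM at 12 hpt, against 14.4 and 13.04 CPM without treatment. The order of the groups was NM at 12 hpt, AO at 12 hpt, untreated AO, untreated NM, without overlap, and the log2 fold change was 4.71 in AO and 8.40 in NM (difference -3.68 ± 0.11, edgeR FDR = 4.5e-07). TNNT3, the fast isoform of troponin T, had 131 and 139 CPM in AO at 12 hpt, against 7.90 and 7.98 CPM in untreated AO, and 290.4 and 313 CPM in NM at 12 hpt, against 1.26 and 1.10 CPM in untreated NM. CKM, the creatine kinase that regenerates ATP in muscle, had 726 and 714 CPM in AO at 12 hpt, against 51.2 and 58.4 CPM in untreated AO, and 1310 and 1319 CPM in NM at 12 hpt, against 10.7 and 14.03 CPM in untreated NM. Both had the order of MYLPF, with differences of -3.91 ± 0.16, edgeR FDR = 2.0e-06 and -3.01 ± 0.16, edgeR FDR = 9.2e-06. The means of all 24 called muscle genes were in that order, in which the low place of untreated NM is in part built into the contrast. Parvalbumin alpha (TRINITY_DN91264_c0_g1), a calcium buffer of fast muscle in fishes, and a thymic parvalbumin (TRINITY_DN88110_c0_g1) differed by -2.89 and -2.61 with the same order, unlike the hair cell parvalbumin-3. EP, which was taken from the trunk, held the highest level of MYLPF, TNNT3 and CKM, at means of 10086 CPM, 703 CPM and 4313 CPM.

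Red blood cell genes rose in NM and were nearly level in AO. Of 20, 14 rose in NM and 2 in AO (all genes: 11.1% and 9.84%). A lower AO response was called for 11 (55.0%, beside 1.79% of all genes), with a median difference of -1.92. HBZ, an embryonic alpha-type globin, had 2984 and 2874 CPM in AO at 12 hpt, against 2443 and 2419 CPM in untreated AO. NM held 7284 and 6593 CPM at 12 hpt, against 1007 and 1007 CPM without treatment. NM held both the highest group, at 12 hpt, and the lowest, untreated, and AO lay between (-2.52 ± 0.099, edgeR FDR = 2.0e-06). ALAS2, the first enzyme of haem synthesis in erythroid cells, had 14.7 and 16.8 CPM in AO at 12 hpt, against 13.1 and 12.97 CPM in untreated AO, and 35.3 and 36.6 CPM in NM at 12 hpt, against 2.66 and 2.08 CPM in untreated NM (TRINITY_DN116055_c2_g1), a difference of -3.66 ± 0.17, edgeR FDR = 3.1e-06, and all 3 of its contigs were called lower, of which TRINITY_DN89916_c4_g1 was kept in 1 of 8 fits with 1 library left out and was not called by limma-voom. SLC4A1, the anion exchanger of the red cell membrane, had 23.7 and 23.2 CPM in AO at 12 hpt, against 16.1 and 15.7 CPM in untreated AO, and 49.2 and 42.9 CPM in NM at 12 hpt, against 5.33 and 5.92 CPM in untreated NM, with the same order (-2.46 ± 0.19, edgeR FDR = 9.2e-05). KLF1, the erythroid transcription factor, was also called, and that call was kept in 1 of 8 fits with 1 library left out. Untreated NM had the lowest mean of the 4 groups in all 11, which is in part built into the contrast that called them.

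Of 47 genes of cartilage and bone, 6 rose and 7 fell in AO (all genes: 9.84% and 2.21%), and 15 rose and 6 fell in NM (all genes: 11.1% and 1.32%). A lower AO response was called for 8, 6 of them collagen contigs (17.0% called, beside 1.79% of all genes). The median difference was -0.38 (all genes: -0.10). COL10A1, the collagen of hypertrophic cartilage, had 49.5 and 50.8 CPM in AO at 12 hpt, against 5.14 and 5.69 CPM in untreated AO. NM held 269 and 289.9 CPM at 12 hpt, against 3.65 and 3.62 CPM without treatment. It rose in both organs, more in NM (-3.05 ± 0.13, edgeR FDR = 2.0e-06). COL9A1, of the collagen IX that coats cartilage fibrils, had 47.98 and 47.2 CPM in AO at 12 hpt, against 29.1 and 27.4 CPM in untreated AO. NM held 26.7 and 26.7 CPM at 12 hpt, against 3.08 and 3.51 CPM without treatment. CNMD, chondromodulin, which keeps vessels out of cartilage, had 23.2 and 23.6 CPM in AO at 12 hpt, against 21.9 and 22.9 CPM in untreated AO. NM held 25.7 and 24.5 CPM at 12 hpt, against 4.49 and 5.04 CPM without treatment. For both, untreated NM was the only group far below the others (-2.26 ± 0.14, edgeR FDR = 2.4e-05, and -2.32 ± 0.13, edgeR FDR = 1.1e-05). MATN4, a matrilin, differed by -2.10 ± 0.17, edgeR FDR = 0.000146. The share of counts on the whole list was lower at 12 hpt in both organs, at 0.602% and 0.596% in AO at 12 hpt, against 0.913% and 0.874% in untreated AO, and 0.596% and 0.592% in NM at 12 hpt, against 0.780% and 0.801% in untreated NM, so the called genes did not follow the sum of the list.

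Lens crystallins had the most negative differences, with untreated AO alone high. Of 25 lens genes, 15 fell in AO and 0 in NM (all genes: 2.21% and 1.32%). A lower AO response was called for 11 (44.0%, beside 1.79% of all genes), and the median difference was -5.49, or -3.81 with every group set to at least 3 counts. CRYBB1, a beta-crystallin of lens fibres, had 0.245 and 0.213 CPM in AO at 12 hpt, against 22.1 and 23.7 CPM in untreated AO, and 0.726 and 0.679 CPM in NM at 12 hpt, against 0.561 and 0.438 CPM in untreated NM. GM2, a gamma-crystallin, had 1.47 and 2.56 CPM in AO at 12 hpt, against 209 and 195 CPM in untreated AO, and 4.65 and 3.40 CPM in NM at 12 hpt, against 4.07 and 4.93 CPM in untreated NM (TRINITY_DN108250_c1_g3). In both genes untreated AO alone was high (-7.05 ± 0.49, edgeR FDR = 5.1e-05, and -6.42 ± 0.49, edgeR FDR = 9.2e-05). Untreated AO had the highest mean of the 4 groups in all 11 called lens genes, which is in part built into the contrast that called them. Of 25 retina genes edgeR called 0 (median -0.16, 4 at an unadjusted p under 0.05), and DESeq2 and limma-voom called 0.

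**Figure D5:**
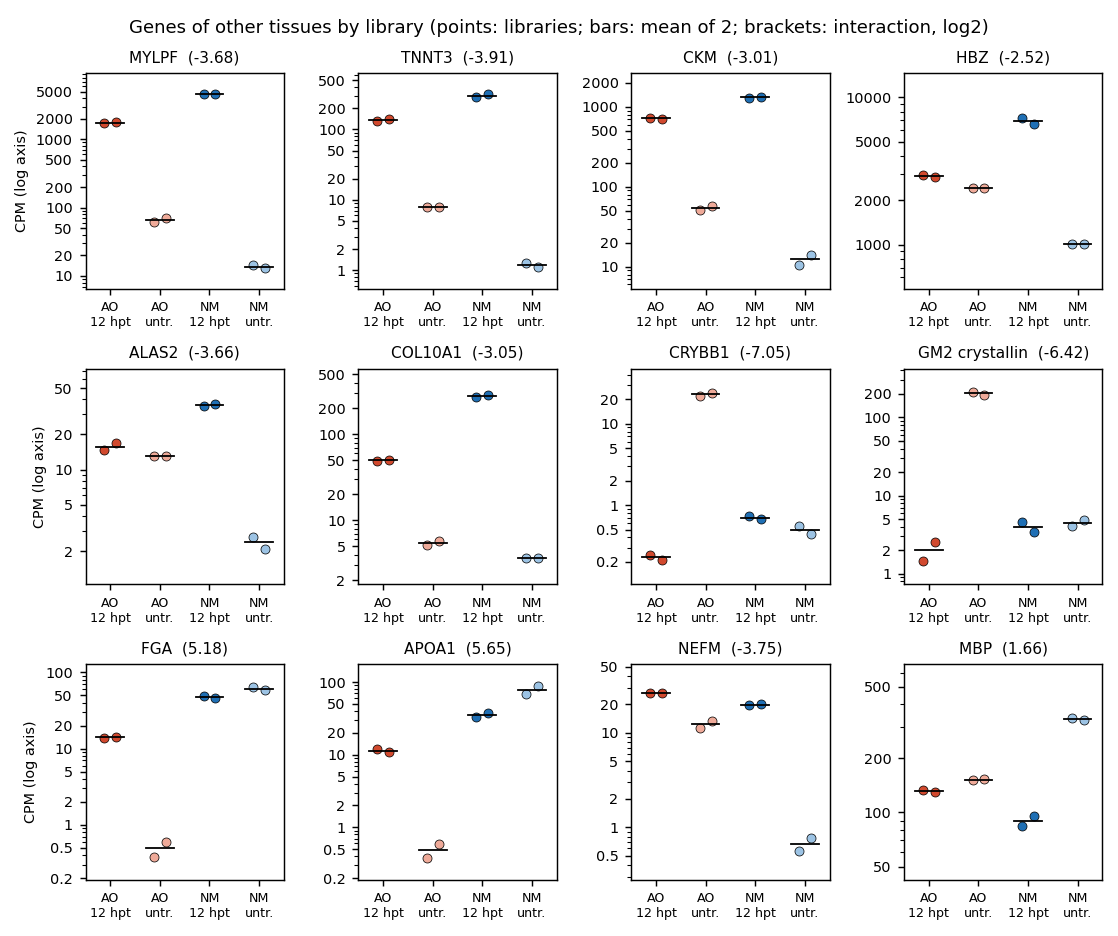
TMM-normalized CPM (log axes) of 12 genes of other tissues in the 8 libraries (points) with the mean of each group (bars) and the difference between the responses in brackets. Muscle genes (MYLPF, TNNT3, CKM) rise in both organs from a lower level in untreated NM, HBZ and ALAS2 change in NM only, crystallins are high in untreated AO alone, and FGA and APOA1 are near 0 in untreated AO alone.

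Liver and plasma protein genes made up most of the list members with a higher AO response. Of 43 tested, 22 rose and 1 fell in AO (all genes: 9.84% and 2.21%), and 3 rose and 5 fell in NM (all genes: 11.1% and 1.32%). A higher AO response was called for 17 and a lower one for 1 (41.9% called, beside 1.79% of all genes). The median difference was 2.21, or 1.94 with every group set to at least 3 counts. FGA, the alpha chain of fibrinogen, had 13.7 and 14.4 CPM in AO at 12 hpt, against 0.381 and 0.599 CPM in untreated AO. NM held 48.3 and 46.1 CPM at 12 hpt, against 63.9 and 58.2 CPM without treatment. Untreated AO was near 0, AO at 12 hpt came next, and both NM groups were higher still, so that AO rose (4.81) towards the level of NM without reaching it (difference 5.18 ± 0.32, edgeR FDR = 2.1e-05). ITIH3, a plasma protein that binds hyaluronan, had 12.03 and 12.4 CPM in AO at 12 hpt, against 1.62 and 0.898 CPM in untreated AO, and 45.4 and 39.4 CPM in NM at 12 hpt, against 37.2 and 36.9 CPM in untreated NM. TF2, named after the iron carrier transferrin, had 15.1 and 16.5 CPM in AO at 12 hpt, against 5.80 and 5.09 CPM in untreated AO, and 41.8 and 44.8 CPM in NM at 12 hpt, against 57.5 and 57.8 CPM in untreated NM. Both had both NM groups above both AO groups (3.06 ± 0.24, edgeR FDR = 0.000115, and 1.95 ± 0.14, edgeR FDR = 6.2e-05). In 14 of the 18 called members the order of the means was untreated NM, NM at 12 hpt, AO at 12 hpt, untreated AO. The low place of untreated AO in these members is in part built into the contrast. TTR, the carrier of thyroid hormone that is also made in the choroid plexus, was the 1 called lower, at -2.10.

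The smallest FDR of a higher AO response belonged to a gene outside the lists, TRINITY_DN99185_c1_g1, which matched pinopsin, an opsin of the bird pineal gland. It had 6.50 and 8.32 CPM in AO at 12 hpt, against 0.190 and 0.200 CPM in untreated AO. NM held 25.7 and 28.8 CPM at 12 hpt, against 42.3 and 45.9 CPM without treatment. Its groups had the order of the plasma protein genes (5.85 ± 0.28, edgeR FDR = 4.9e-06), as had a homologue of alpha-1-antitrypsin (TRINITY_DN87068_c0_g1, 5.57 ± 0.33, edgeR FDR = 1.9e-05) and a type-4 ice-structuring protein (TRINITY_DN84808_c1_g1, 4.04 ± 0.33, edgeR FDR = 0.000132). The means of these 3 in EP were 0.136 CPM, 0.201 CPM and 0.603 CPM.

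The 5 genes called in opposite directions rose in AO and fell in NM. APOA1, the main protein of high-density lipoprotein, had 12.03 and 10.8 CPM in AO at 12 hpt, against 0.381 and 0.599 CPM in untreated AO. NM held 33.4 and 37.7 CPM at 12 hpt, against 69.4 and 87.9 CPM without treatment. The log2 fold change was 4.51 in AO and -1.15 in NM (difference 5.65 ± 0.46, edgeR FDR = 0.000146). A second contig of ITIH2 (TRINITY_DN97204_c1_g2) had 3.07 and 5.02 CPM in AO at 12 hpt, against 1.52 and 1.70 CPM in untreated AO. NM held 19.3 and 15.1 CPM at 12 hpt, against 46.1 and 46.8 CPM without treatment. AGXT, a peroxisomal or mitochondrial aminotransferase of the liver, had 1.60 and 2.35 CPM in AO at 12 hpt, against 0.571 and 0.898 CPM in untreated AO. NM held 4.94 and 6.001 CPM at 12 hpt, against 13.7 and 12.4 CPM without treatment. In both, every AO library was below every NM library, and the differences were 2.78 ± 0.30, edgeR FDR = 0.000697, and 2.67 ± 0.39, edgeR FDR = 0.00344 (AGXT, kept in 2 of 8). Complement C3 (TRINITY_DN116862_c2_g1) had 13.03 counts over the libraries of AO at 12 hpt, against 0 in untreated AO, at least a 5.09-fold rise if 3 counts are assumed in untreated AO. In NM it had 1.60 and 2.15 CPM at 12 hpt, against 9.81 and 8.99 CPM without treatment, and the called difference was kept in 1 of 8 fits. CA8, a carbonic anhydrase relative without enzyme activity that is known from Purkinje cells, was the only 1 of the 5 whose product is not known from plasma or liver. It had 14.1 and 12.5 CPM in AO at 12 hpt, against 4.95 and 3.69 CPM in untreated AO. NM held 2.32 and 2.26 CPM at 12 hpt, against 5.33 and 4.71 CPM without treatment. AO at 12 hpt was the highest group and NM at 12 hpt the lowest, while untreated organs overlapped (2.74 ± 0.25, edgeR FDR = 0.000251).

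The called genes were also grouped by where their level was highest among all 7 groups. Of the 305 genes with a lower AO response, 140 (45.9%) had their highest mean in EP, 78 (25.6%) in NM at 24 hpt and 0 in untreated NM, beside 19.3% of all genes tested with their highest mean in EP and 20.8% in NM at 24 hpt. Of the 89 with a higher AO response, 47 (52.8%) had it in untreated NM, 7 in EP and 0 in untreated AO, beside 17.7% of all genes in untreated NM. The counts of 0 for untreated NM and untreated AO are in part built into the contrast. A group held at 0 raises the shares of the other groups, so the shares over all genes are not a like comparison. EP and 24 hpt have no part in the contrast but entered the estimate of the spread behind the calls.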

How the data were processed

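Larval Siberian sturgeon AO, NM and EP were profiled by paired-end mRNA sequencing (TruSeq, 14 libraries). Per the study's methods and the labels, adapters and low-quality bases were removed with Trimmomatic 0.38, a transcriptome was built from all tissues with Trinity 2.6.6 and genes were named by Swiss-Prot and sterlet proteins. The authors deposited expected counts per gene from RSEM (version not given in the sources used here). Their table held 23448 genes, 2 without a count and 801 without a protein name.

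After rounding, the expected counts were fitted with edgeR 4.0.16 under R 4.3.3 (TMM, filterByExpr, glmQLFit and glmQLFTest on a 7-group model, log2 value above 1 and Benjamini-Hochberg FDR under 0.01). Scripts were tested on simulated data. DESeq2 1.42.0, limma-voom (limma 3.58.1) and the settings of the closing section were alternatives. Deviations of same-numbered libraries from their group means correlated at 0.125 to 0.232 in 21 of 21 pairs of groups. Libraries with the same replicate number, which comes from the labels, thus shared part of their deviation. The main model has no term for it. With the replicate number as a block, 152 genes were called higher and 437 lower, in place of 89 and 305.

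Named genes were the 12 of smallest FDR in each direction, up to 4 called members of each of 27 lists (2 of highest level where none was called), up to 6 called in opposite directions, contigs the study names, and the 6 called genes of highest level in each direction. Members of lists and a further 17 contigs were also named after their values were seen. Some genes that the rule names are not reported here. The question, the lists and the rule were chosen with earlier results of these data known. Replicates are parts of 1 pool, so p-values measure the spread between these parts only, and counting depth limits genes near 0.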

Additional observations from a re-analysis of the deposited data

Results flagged for a closer look

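A test of the difference between the organs' responses singled out 89 genes with a higher and 305 with a lower AO response, as described above. Within them, 5 genes were called in opposite directions at 12 hpt, higher in AO and lower in NM. Their differences between the responses were 5.65 for APOA1, 2.78 for ITIH2 (TRINITY_DN97204_c1_g2), 2.74 for CA8, 2.67 for AGXT and 8.13 for C3 (TRINITY_DN116862_c2_g1) on the log2 scale. The value for C3 depends on the prior count of the fit, because both libraries of untreated AO were at 0, and it is no bound. With 2 libraries a group, no single library could be examined as an outlier of its group.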

How the results depend on the processing

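Of the calls between the organs' responses, 98 of 394 were kept under 6 other fits and with each of the 8 libraries left out in turn. A fit on only the 4 groups gave 125 calls (41 higher and 84 lower) on fewer residual degrees of freedom. At an FDR under 0.05 there were 874 (182 and 692). With no fold threshold there were 596 (190 higher), and the AO response had 5461 (2229 lower) and the NM response 4601 (1432 lower). With the replicate number as a block, 152 genes were called higher, and all 89 were among them. The totals of 589 for the difference, 2823 for AO and 2892 for NM stayed within 1.5 times those without the block. With 1 library left out, the difference had 190 to 232 calls, with 41 to 50 higher and 145 to 182 lower, the AO response 2023 to 2616 and the NM response 1995 to 2641. DESeq2 gave 326 calls, of which 262 were among the 394, and limma-voom 336, of which 324 were. Libraries thinned to 1 depth gave 302 (283 shared), and DESeq2 size factors 376 (94 higher and 282 lower, 370 shared). In 3 alternatives chosen after seeing the data, calls were counted at a mean of at least 5 CPM, without genes near 0 and after subtracting the median, with 315, 361 and 382 calls. No named gene changed direction with a call under 17 settings. With 1 library left out, 224 of their values lost the call and 712 kept their side of the threshold. Under the other settings 91 lost it, 961 kept it and 1 gained it.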

Other observations

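TBR1, LHX2 and OLIG2, 3 transcription factors known from the central nervous system, were called with a lower AO response by edgeR and were chosen after their values were seen. The calls were kept in 6, 6 and 0 of 8 fits with 1 library left out (edgeR FDR up to 0.0567 for OLIG2), TBR1 and LHX2 losing theirs without either library of untreated NM, and DESeq2 called none of them. TBR1, of cortical excitatory neurons in mammals, had 6.14 and 6.19 CPM in AO at 12 hpt, against 1.90 and 1.60 CPM in untreated AO, and 4.65 and 5.21 CPM in NM at 12 hpt, against 0.140 and 0.110 CPM in untreated NM. LHX2, of forebrain and olfactory precursors, and OLIG2, of oligodendrocyte precursors, had the same low group, at 0.180 CPM and 0.110 CPM in untreated NM on average. For these 3 genes the AO libraries at 12 hpt were the highest of the 8, and EP means were 0.201 CPM for TBR1, 2.23 CPM for LHX2 and 0.201 CPM for OLIG2.

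Levels at 24 hpt took no part in the contrast, and for MYLPF the order of the organs differed from that at 12 hpt. MYLPF averaged 4003 CPM in AO at 24 hpt and 71.4 CPM in NM at 24 hpt, where NM had been above AO at 12 hpt. The gamma-crystallin GM2 (TRINITY_DN108250_c1_g3) averaged 3101 CPM in NM at 24 hpt, above all 8 libraries of the contrast.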
